A study of Mus musculus with 8 samples.

Results

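The Slc22 family encodes membrane carriers of organic anions, organic cations, urate and carnitine, and 9 of its genes were followed here in embryonic mouse kidneys with and without Lim1 (Lhx1) in the metanephric mesenchyme. They are Slc22a2, Slc22a4, Slc22a5, Slc22a6, Slc22a8, Slc22a12, Slc22a13, Slc22a18 and Slc22a19, out of 18194 genes named on the array. Every probe set to which the array's annotation gives the single symbol of one of these genes was taken, which yielded 14 of 45101 probe sets. Of the 9 genes, 5 were read by 2 probe sets and 4 by 1.

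Whole kidneys gave 4 RNA pools, and each was hybridised to 2 Affymetrix Mouse Genome 430 2.0 arrays, 8 in all. The E18.5 mutant pool held kidneys of 9 embryos and the E18.5 control pool those of 14, and the E14.5 mutant pool held kidneys of 17 embryos and the E14.5 control pool those of 23. Mutants were Lim1flox/lacZ; Rarb2-Cretg/+, with a null allele marked by lacZ in every cell and a conditional allele that the Rarb2-Cre transgene, active in the metanephric mesenchyme, removes there. Controls were Lim1flox/+; Rarb2Cretg/+, so the Cre transgene and a floxed allele were present in all 4 pools, and the ureteric bud of mutants was not the target of Cre. The embryos had a mixed C57BL/6J, 129/SvEv and SJL/J background. Both arrays of a pool came from 1 RNA preparation, so their spread is technical. With 1 pool per condition no p-value was given between 2 pools. Most ratios of the 9 genes are followed by their error, the lowest and highest of the 4 ratios that single arrays give.

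In the mature kidney most of these carriers sit in the plasma membrane of the proximal tubule cell. Carriers of the basolateral side, facing the blood, take up organic anions and cations for secretion, and carriers of the brush border return urate and carnitine or exchange anions with the tubular fluid. Secretion of organic ions is weak in the fetal kidney and matures as proximal tubules differentiate.

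Lower and higher are used of a gene that met 4 criteria of size by 1 or more probe sets. The ratio of the pool means had to reach 2 in either direction and be larger than the fold by which duplicates of the same pool differed, the higher mean times the ratio had to exceed 100, and both arrays of the higher pool had to lie at or above the 40th percentile of their own signals. Signals are model-based intensities on a linear scale. Ratios are between arrays for the same probe set, and no level of 1 gene was set against that of another. Signals of different probe sets were put together only to choose the brightest of a gene and to sum markers, and such a sum weighs bright probe sets most. Array medians lay between 225 and 243, duplicate log2 signals correlated across probe sets at r = 0.980 to 0.990, and the median fold between duplicates was 1.16 in the E18.5 mutant pool and 1.08 to 1.11 in the other pools. The targeted gene could not serve as a check. Its probe set 1421951_at gave mutant over control ratios of 1.16 (E18.5) and 0.813 (E14.5), and 1450428_at gave 0.870 (E18.5) and 1.16 (E14.5), so the directions were opposite, and the position of either probe set relative to the floxed part is not given in the sources used here.

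At E18.5, 5 of the 9 genes were lower in mutant than in control kidneys, namely Slc22a19, Slc22a6, Slc22a2, Slc22a8 and Slc22a13, and 0 were higher. Over all named genes 2.23% were lower and 0.165% higher by the same criteria. By the 5 probe sets that met the criteria, 1 for each gene, the signal in mutants was between 4.56% and 34.3% of that in controls, and for each of them at least 1 mutant array lay under its 40th percentile. The second probe sets of Slc22a6 and Slc22a8 did not meet the criteria, with 71.1% and 76.8%. In the mutant pools 0 of the 9 genes were higher at E18.5 than at the earlier stage, where 1.35% of all named genes were, and in the control pools the same 5 genes were, where 4.75% of all were. At E14.5 the criteria called 0 of the 9 genes between mutants and controls, where the background was 0.121% lower and 0.0055% higher.

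**Figure D1:**
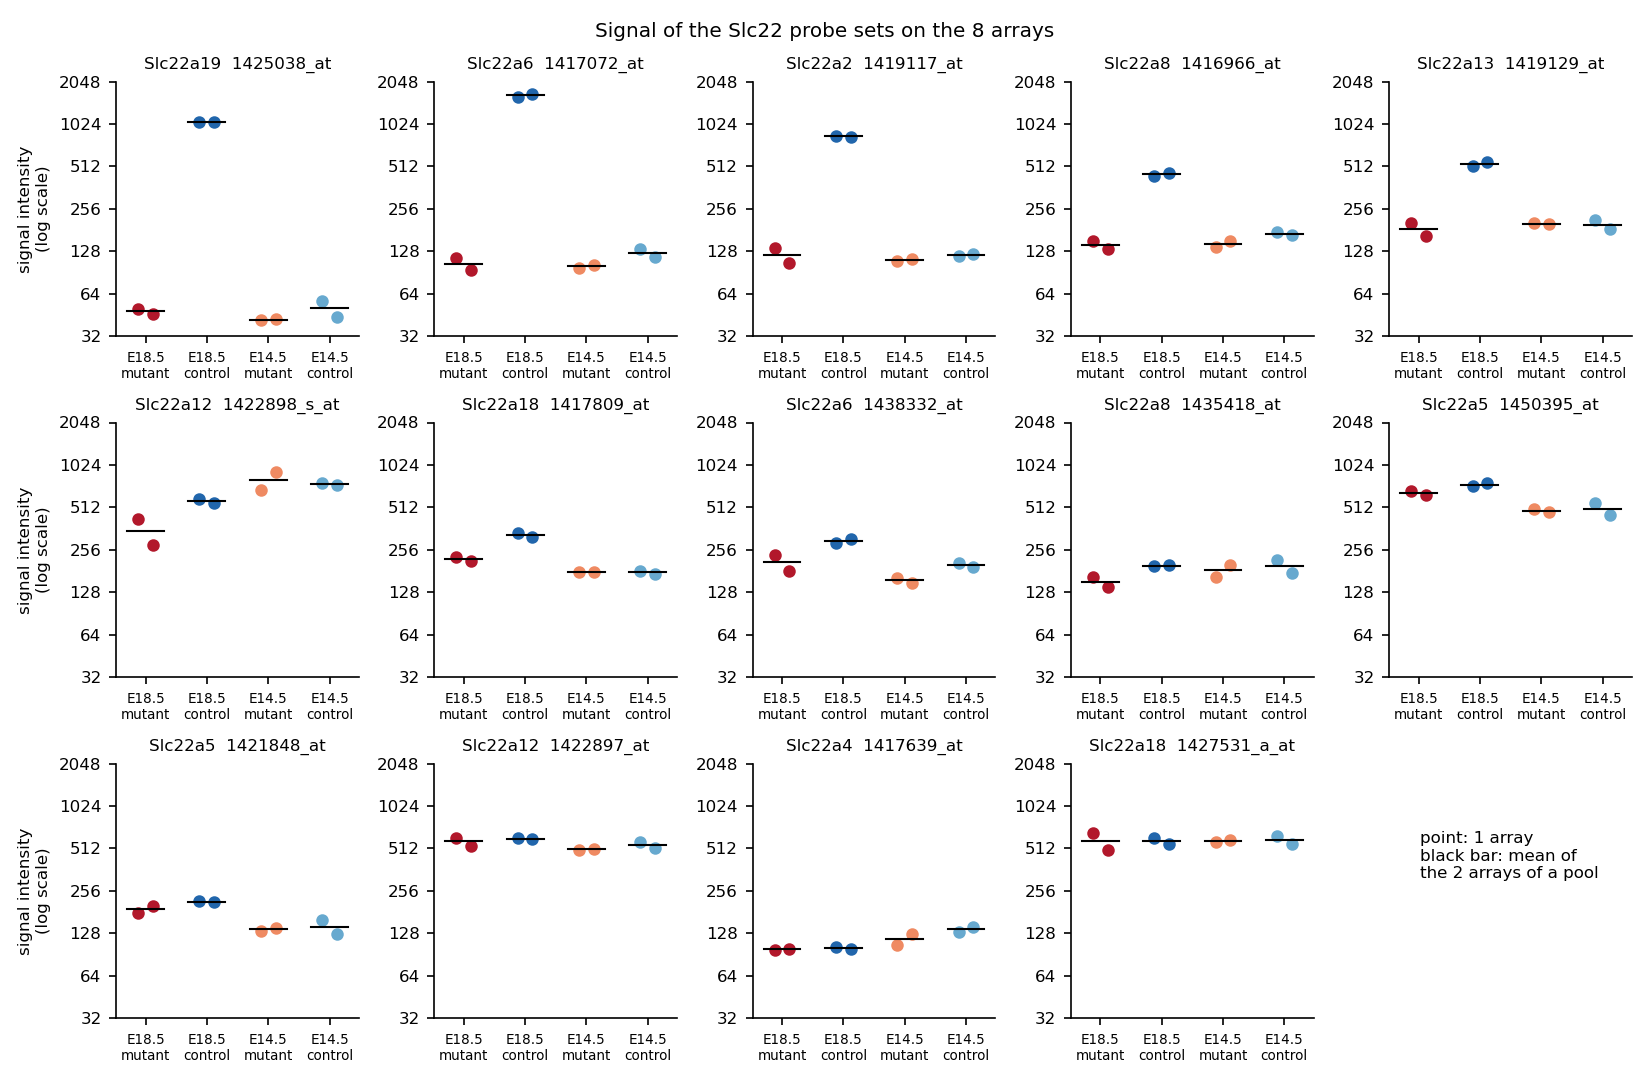
Signal intensity of the 14 Slc22 probe sets (log scale) on each of the 8 arrays, by pool. Points are single arrays and black bars the mean of the 2 arrays of a pool. In the top row the E18.5 control arrays stand above the other 6 arrays for Slc22a19, Slc22a6, Slc22a2, Slc22a8 and Slc22a13, while Slc22a5, Slc22a4 and 1 probe set each of Slc22a12 and Slc22a18 differ little between mutants and controls at E18.5.

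Slc22a19, Slc22a8 and Slc22a6 lie in 1 run of Slc22 genes on chromosome 19, and the window from 250 bases before to 50 bases after the transcription start of each is printed here because these promoters belong to neighbouring genes that differed in the same direction. The sequences are RefSeq's on GRCm38.p6, given 5′ to 3′ on the strand of the gene. The Slc22a19 window is chr19:7711261-7711560 on the minus strand, that of Slc22a8 chr19:8592932-8593231 on the plus strand and that of Slc22a6 chr19:8617746-8618045 on the plus strand. Capitals mark the letters GTTAAT, part of the sequence bound by the HNF1 transcription factors.
Slc22a19 promoter: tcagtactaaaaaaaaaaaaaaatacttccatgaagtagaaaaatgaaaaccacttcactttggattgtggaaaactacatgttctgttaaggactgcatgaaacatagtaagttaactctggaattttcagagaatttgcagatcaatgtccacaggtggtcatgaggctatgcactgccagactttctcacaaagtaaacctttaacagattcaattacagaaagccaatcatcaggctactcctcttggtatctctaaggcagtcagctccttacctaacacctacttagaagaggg
Slc22a8 promoter: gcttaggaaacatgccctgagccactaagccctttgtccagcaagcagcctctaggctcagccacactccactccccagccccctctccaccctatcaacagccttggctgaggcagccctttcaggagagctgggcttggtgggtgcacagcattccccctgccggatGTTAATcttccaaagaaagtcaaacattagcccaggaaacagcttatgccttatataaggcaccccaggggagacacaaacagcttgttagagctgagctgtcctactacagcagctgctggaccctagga
Slc22a6 promoter: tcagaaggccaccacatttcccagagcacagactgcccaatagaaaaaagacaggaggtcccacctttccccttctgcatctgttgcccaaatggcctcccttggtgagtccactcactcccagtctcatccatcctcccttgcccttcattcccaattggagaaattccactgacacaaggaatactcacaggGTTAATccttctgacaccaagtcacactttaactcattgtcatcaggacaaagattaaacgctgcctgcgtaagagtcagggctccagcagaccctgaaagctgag
Windows were found for 9 of 9 genes, and 4 motifs were searched on both strands. GTTAAT occurred in the windows of 2 of the 9 genes, Slc22a8, with its first letter at position -81, and Slc22a6, at position -56, counted from the transcription start, and in 7.10% of all 32851 RefSeq promoter windows. The nuclear receptor letters AGGTCA were found in 0 of the 9 windows and 16.3% of all windows, and the HNF4 letters CAAAGTCCA in 0 of the 9 and 0.475% of all. TATAAA occurred in 1 of the 9, that of Slc22a13 on the opposite strand, and in 13.6% of all. A match of letters is a description of the window and not a site. Of the remaining genes, Slc22a12 lies elsewhere on chromosome 19, Slc22a4 and Slc22a5 on chromosome 11, Slc22a2 on chromosome 17, Slc22a13 on chromosome 9 and Slc22a18 on chromosome 7.

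Slc22a6 encodes OAT1, the basolateral exchanger that takes up p-aminohippurate and many anionic drugs into the proximal tubule. Its probe set 1417072_at gave 114 and 94.0 in E18.5 mutants, against 1589 and 1683 in E18.5 controls. At E14.5 it read 97.5 and 103 in mutants and 134 and 116 in controls. The E18.5 mutant arrays, at percentile 20.0 and 17.5 of all probe sets, overlapped the E14.5 mutant arrays, and only the E18.5 control arrays were high, at percentile 96.2 and 96.4. The E18.5 mutant over control ratio was 0.0637 (0.0558 to 0.0720), or -3.97 on the log2 scale. A second probe set, 1438332_at, read 237 and 183 in E18.5 mutants and 284 and 306 in E18.5 controls, for a ratio of 0.711 (0.596 to 0.835) that did not meet the criteria. At E14.5 it read 163 and 150 in mutants and 205 and 194 in controls. All arrays of the mutant pool were below those of the control pool at both stages for either probe set, but the log2 ratios of the probe sets at E18.5 lay 3.48 apart, so the size of the Slc22a6 difference depended on the probe set.

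Slc22a8 encodes OAT3, the other main basolateral anion carrier of the proximal tubule, which takes estrone sulfate among other substrates. Probe set 1416966_at read 153 and 134 in E18.5 mutants, against 441 and 461 in E18.5 controls. At E14.5 the signals were 138 and 152 in mutants and 175 and 166 in controls. Mutant arrays were below control arrays at both stages, and the E18.5 controls stood above all others. The ratio at E18.5 was 0.318 (0.290 to 0.346), or -1.66 on the log2 scale, and at E14.5 it was 0.852 (0.792 to 0.915), under the 2-fold criterion. Probe set 1435418_at read 164 and 140 in E18.5 mutants and 197 and 199 in E18.5 controls, and 165 and 201 in E14.5 mutants and 216 and 177 in E14.5 controls. Its E18.5 ratio of 0.768 (0.704 to 0.833) did not meet the criteria, and its arrays overlapped between genotypes at E14.5 and between stages in controls.

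Slc22a19 encodes OAT5, known from rodents as a brush border exchanger of anions such as steroid sulfates. Its probe set 1425038_at gave 50.4 and 46.4 in E18.5 mutants and 1062 and 1063 in E18.5 controls. At E14.5 it read 41.9 and 42.2 in mutants and 57.4 and 44.1 in controls. The E18.5 mutant arrays lay at percentile 4.93 and 5.12 and the E14.5 arrays were as low, and only the E18.5 control arrays were high, near percentile 93. The ratio was 0.0456 (0.0437 to 0.0474), or -4.46 on the log2 scale. Its size is uncertain beyond that range, since the mutant signal lay far under the 40th percentile, and with 50 units added to every signal it was -3.50 for Slc22a19 and -3.45 for Slc22a6.

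Slc22a2 encodes OCT2, the basolateral carrier through which organic cations such as metformin enter the proximal tubule. Probe set 1419117_at read 135 and 105 in E18.5 mutants and 847 and 822 in E18.5 controls. At E14.5 it read 110 and 114 in mutants and 119 and 122 in controls. The E18.5 mutant arrays lay on either side of the E14.5 arrays of both genotypes, and only the E18.5 controls were high. The ratio at E18.5 was 0.144 (0.124 to 0.165), or -2.80 on the log2 scale.

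The probe sets of the urate carriers differed from each other, also within Slc22a12. Slc22a13, which encodes the brush border urate and nicotinate carrier OAT10, read 203 and 164 in E18.5 mutants and 515 and 555 in E18.5 controls by its probe set 1419129_at. At E14.5 it read 202 and 200 in mutants and 212 and 184 in controls, and these arrays overlapped. The E18.5 ratio was 0.343 (0.296 to 0.394), or -1.54 on the log2 scale. Slc22a12 encodes URAT1, the main brush border urate carrier. Its probe set 1422897_at read 612 and 537 in E18.5 mutants and 606 and 593 in E18.5 controls, with overlapping arrays and a ratio of 0.958 (0.887 to 1.03). At E14.5 this probe set read 500.1 and 507 in mutants and 572 and 520 in controls. Its signal thus stayed between 500.1 and 612 on all arrays, and whether it follows the Slc22a12 transcript was not tested.

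The second Slc22a12 probe set, 1422898_s_at, whose suffix marks probes that may bind more than 1 transcript, had another pattern. It read 422 and 275 in E18.5 mutants and 590 and 550 in E18.5 controls, and 680 and 914 in E14.5 mutants and 762 and 741 in E14.5 controls. In both genotypes the later stage had the lower signals, lowest in the E18.5 mutants, and the duplicates of the mutant pools differed by 1.53-fold (E18.5) and 1.34-fold (E14.5), the largest folds between duplicates among the 14 probe sets in each of these pools. The E18.5 mutant over control ratio was 0.612 (0.467 to 0.767) and did not meet the criteria. The E18.5 over E14.5 ratio in mutants, 0.438 (0.301 to 0.621), did, and made Slc22a12 the only gene of the 9 that was lower at E18.5 in mutants, where 1.49% of all named genes were. That call was lost when array 2 of either mutant pool was left out, with log2 ratios of -0.92 without array 2 of the E18.5 mutants and -0.96 without array 2 of the E14.5 mutants, against -1.19 with all arrays, and it rested on a probe set that does not stand for 1 transcript with certainty.

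Slc22a5 and Slc22a4 encode OCTN2, the carnitine carrier, and OCTN1, an ergothioneine carrier, both of the brush border. Slc22a5 read 665 and 630 in E18.5 mutants and 725 and 761 in E18.5 controls by 1450395_at. By 1421848_at it read 179 and 200 in E18.5 mutants and 217 and 213 in E18.5 controls. Mutant arrays were below control arrays for both probe sets, but the ratios of 0.872 (0.829 to 0.917) and 0.879 (0.823 to 0.937) were far under the criterion, and the probe sets differed by 0.01 on the log2 scale. At E14.5 1450395_at read 495 and 474 in mutants and 553 and 451 in controls, and 1421848_at read 134 and 140 in mutants and 159 and 127 in controls. These arrays overlapped between genotypes. Slc22a4 read 97.9 and 99.6 in E18.5 mutants and 103 and 99.9 in E18.5 controls, and 106 and 126 in E14.5 mutants and 130 and 143 in E14.5 controls. It lay under the 40th percentile on all 8 arrays, so its level was not measured above the minimum signal in any pool.

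Slc22a18, an imprinted gene whose substrates are poorly defined, read 226 and 214 in E18.5 mutants and 339 and 316 in E18.5 controls by 1417809_at. At E14.5 it read 178 and 179 in mutants and 182 and 173 in controls. The E18.5 controls were highest and the E18.5 mutants lay between them and both E14.5 pools, and the E18.5 mutant over control ratio of 0.673 (0.632 to 0.716) did not meet the criteria. By 1427531_a_at the signals were 660 and 502 in E18.5 mutants and 610 and 549 in E18.5 controls, with a ratio of 1.00 (0.823 to 1.20). At E14.5 this probe set read 568 and 586 in mutants and 625 and 552 in controls, again with overlapping arrays.

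**Figure D2:**
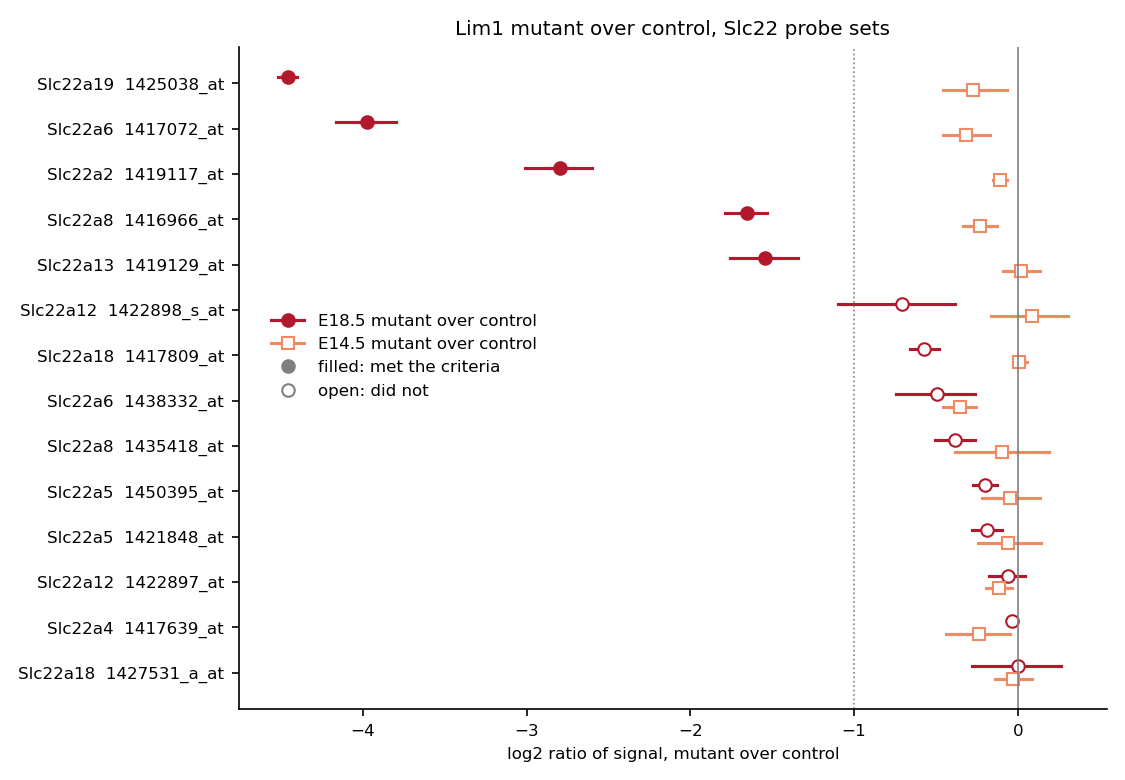
Log2 ratio of signal, mutant over control, for each of the 14 Slc22 probe sets at E18.5 and at E14.5, with the range over the 4 array pairings as horizontal bars and the 2-fold line dotted. Filled symbols met the criteria. At E18.5 5 values, from -4.46 to -1.54, lie beyond the dotted line, and the E14.5 values lie between -0.36 and 0.08.

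Over the 14 probe sets the median E18.5 mutant over control log2 ratio was -0.53, against 0.05 for all probe sets. On 12 of 14 probe sets both mutant arrays were below both control arrays, as on 17.6% of all probe sets, and on 0 of 14 both were above, as on 24.5%. Leaving aside the 5 probe sets that met the criteria, the largest difference on the log2 scale was -0.71, that of Slc22a12 by 1422898_s_at. At E14.5 the median was -0.10, against -0.01 for all probe sets, and both mutant arrays were below both control arrays on 7 of 14, as on 19.7% of all, and above them on 0, as on 17.4%. The lowest E14.5 ratio, 0.782 (0.729 to 0.838), was that of Slc22a6 by 1438332_at. The minimum signal was reached in the higher pool by 13 of the 14 probe sets at E18.5 and by 6 at E14.5, so the rest could not be called at E14.5 whatever their ratio. Among the 7 with mutant arrays below control arrays at E14.5, those of Slc22a2, Slc22a4 and Slc22a19, 1417072_at and 1416966_at did not reach it.

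The comparison of stages within a genotype asks when the transcripts appear. In mutants the 5 probe sets that were lower at E18.5 had E18.5 over E14.5 ratios of 1.15 (1.10 to 1.20) for Slc22a19, 1.04 (0.910 to 1.17) for Slc22a6 by 1417072_at, 1.08 (0.924 to 1.23) for Slc22a2, 0.914 (0.812 to 1.02) for Slc22a13 and 0.986 (0.880 to 1.10) for Slc22a8 by 1416966_at. Among these 5 only for Slc22a19 did the mutant arrays of the stages not overlap, with means of 48.4 (E18.5) and 42.0 (E14.5), both under the 40th percentile. No gene of the 9 (0 of 9) was higher at E18.5 in mutants, with a background of 1.35%. Between the mutant pools the E18.5 arrays were both above the E14.5 arrays on 6 of 14 probe sets, as on 26% of all, and both below on 3, as on 23.9%. Slc22a6 by 1438332_at had a ratio of 1.34 (1.12 to 1.59) in mutants, with no overlap between arrays of the stages. Slc22a5 had ratios of 1.34 (1.27 to 1.40) by 1450395_at and 1.38 (1.27 to 1.49) by 1421848_at in mutants, and its arrays did not overlap between stages in either genotype.

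In controls the same ratio was 20.9 (18.5 to 24.1) for Slc22a19, 13.1 (11.9 to 14.5) for Slc22a6 by 1417072_at, 6.92 (6.74 to 7.11) for Slc22a2, 2.70 (2.42 to 3.02) for Slc22a13 and 2.65 (2.52 to 2.77) for Slc22a8 by 1416966_at. The E14.5 signals of Slc22a19, Slc22a6, Slc22a2 and Slc22a8 lay under the 40th percentile, so the sizes of these ratios are uncertain, and with 50 units added the log2 ratio of Slc22a19 was 3.46 in place of 4.39. These 5 of 9 genes were higher, with a background of 4.75%, and 0 were lower, with a background of 2.94%. Slc22a18 by 1417809_at reached 1.85 (1.74 to 1.97), and Slc22a5 reached 1.51 (1.34 to 1.71) by 1421848_at and 1.48 (1.31 to 1.69) by 1450395_at, under the criterion. Slc22a4 had a ratio of 0.741 (0.699 to 0.787). Both E18.5 control arrays were above both E14.5 control arrays on 10 of 14 probe sets, as on 26.5% of all, and below them on 2, as on 36% of all.

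The stage change in mutants minus that in controls, on the log2 scale, was -4.18 (-4.45 to -3.94) for Slc22a19, -3.66 (-3.99 to -3.34) for Slc22a6 by 1417072_at, -2.69 (-2.94 to -2.45) for Slc22a2, -1.56 (-1.90 to -1.25) for Slc22a13 and -1.42 (-1.66 to -1.19) for Slc22a8 by 1416966_at. The second probe sets gave -0.14 (-0.49 to 0.20) for Slc22a6 by 1438332_at and -0.28 (-0.69 to 0.12) for Slc22a8 by 1435418_at, and both ranges include 0. For Slc22a18 by 1417809_at it was -0.58 (-0.71 to -0.45), and for Slc22a5 by 1450395_at it was -0.15 (-0.41 to 0.10), a range that includes 0. The median over the 14 probe sets was -0.43, against 0.05 over all probe sets. These values are differences of the same 4 pools as the ratios above and add no independent evidence. They were not tested, since there was 1 pool per condition.

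**Figure D3:**
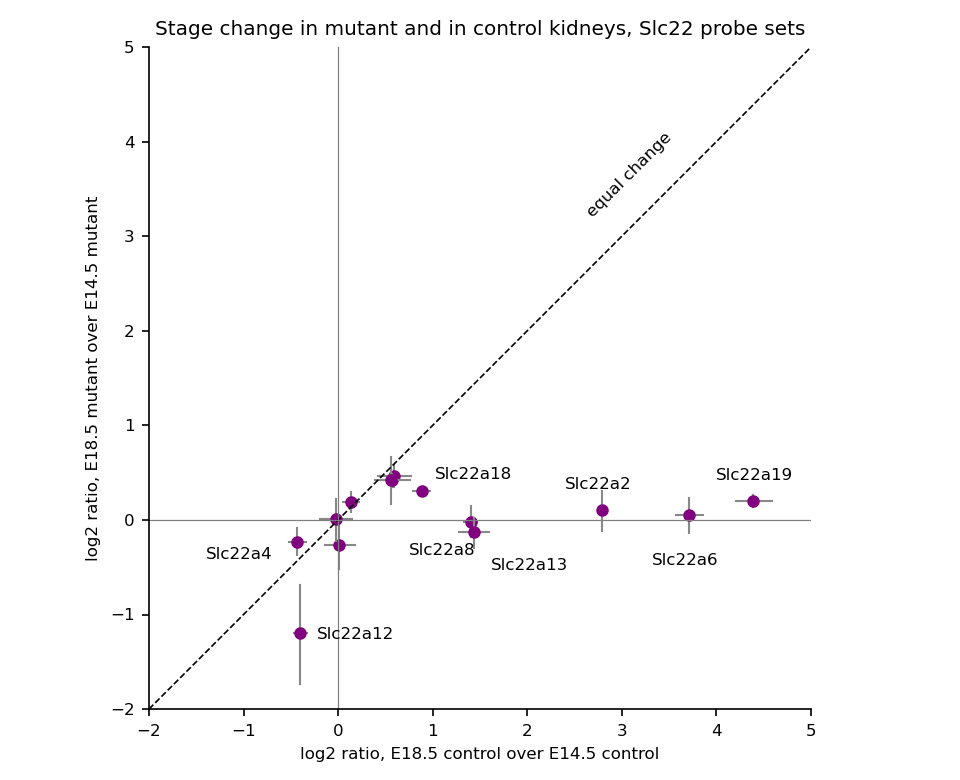
Log2 stage ratio (E18.5 over E14.5) in mutant kidneys (vertical axis) against that in control kidneys (horizontal axis) for the 14 Slc22 probe sets. Bars are ranges over the 4 array pairings and the dashed line marks equal change. The labelled points of Slc22a8, Slc22a13, Slc22a2, Slc22a6 and Slc22a19 lie between -0.13 and 0.20 along the mutant axis and from 1.40 to 4.39 along the control axis, and the unlabelled second probe sets of Slc22a6 and Slc22a8 lie at 0.43 and -0.27 along the mutant axis and at 0.56 and 0.01 along the control axis.

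The 1 test that the 4 pools allow is a limma fit with additive terms for stage and genotype, across 27061 probe sets. It tested 11 of the 14 probe sets, from 8 of the 9 genes, with Slc22a4 left out for low signal. With Benjamini-Hochberg adjustment at 0.05, the term for stage called 0 of the 8 genes, against 8.62% of all probe sets. At an unadjusted p under 0.05 the stage term called 4 of the 8 genes, and 7531 of the 27061 probe sets. The genotype term called 0 of the 8 and 0% of all probe sets. At an unadjusted p under 0.05 the genotype term called 2 of the 8 genes, and 1045 of the 27061 probe sets. The lowest adjusted p by limma for the stage term were 0.0709 for Slc22a5 by 1450395_at, with an effect of 0.50 ± 0.12 (SE) on the log2 scale, and 0.0726 for Slc22a6 by 1438332_at. With 1 residual degree of freedom, it takes the stage effect to be equal in both genotypes, so for Slc22a19 the 0.20 in mutants and 4.39 in controls entered its residual, and the effect of genotype was -2.34 ± 0.95 (SE) with an adjusted p of 1.00.

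On chromosome 19, 8 consecutive protein-coding genes of the RefSeq annotation were Slc22 genes, in the order Slc22a19, Slc22a26, Slc22a27, Slc22a28, Slc22a29, Slc22a30, Slc22a8 and Slc22a6. Of these, 7 were measured and 6 were lower in E18.5 mutants, where 2.23% of all named genes were. The run was noticed after the values were seen, and it is described without a test. Slc22a27 read 48.1 and 44.6 in E18.5 mutants and 188 and 185 in E18.5 controls, Slc22a29 read 112 and 91.9 in mutants and 392 and 399 in controls, and Slc22a30 read 156 and 108 in mutants and 257 and 278 in controls. All 3 had mutant arrays below control arrays, with log2 ratios of -2.01, -1.96 and -1.02 for Slc22a27, Slc22a29 and Slc22a30. Slc22a26, with 316 and 260 in mutants and 275 and 277 in controls, had overlapping arrays and a log2 ratio of 0.06. The genes of this run are close paralogs, and the probe sets of Slc22a27 and Slc22a29 carry the suffix x, which marks probes that may bind other sequences, so their signals may include each other's transcripts.

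**Figure D4:**
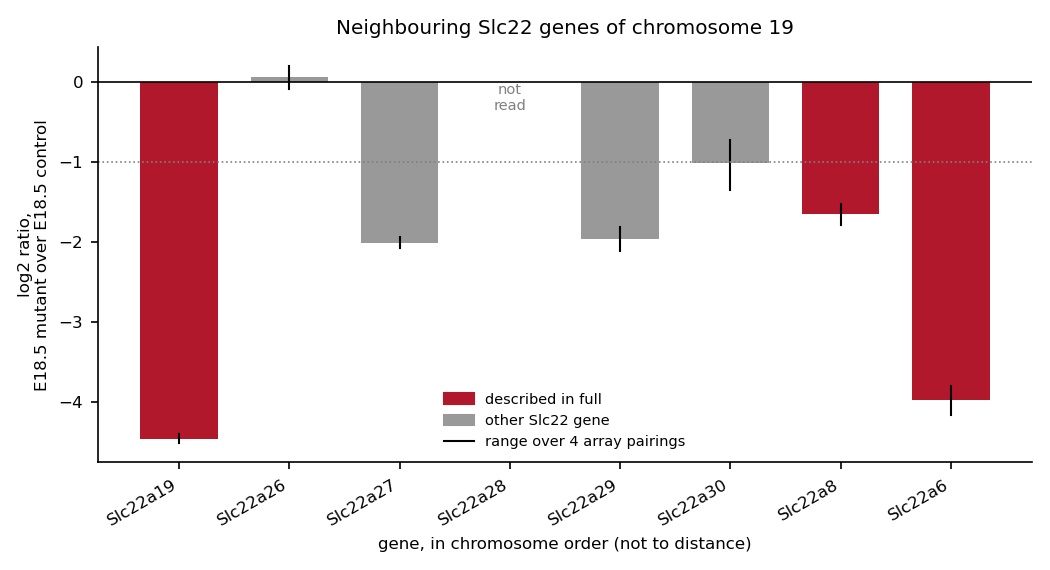
Log2 ratio of E18.5 mutant over E18.5 control for the 8 neighbouring Slc22 genes of chromosome 19, in gene order and not to distance, each by its brightest probe set. Lines are ranges over the 4 array pairings, the dotted line marks 2-fold, and Slc22a28 was not read. In all 6 bars lie below 0, from -4.46 for Slc22a19 to -1.02 for Slc22a30, and Slc22a26 lies at 0.06.

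In the rest of the family, read from a list of 16 other Slc22 genes, 12 were measured, 3 were lower in E18.5 mutants and 0 higher. Read by the brightest probe set of each gene, the median log2 ratio was -1.54 for the 9 genes described first and -0.11 for these 12, against 0.03 for all named genes. The genes and lists were chosen with earlier results of these data known, so this contrast may reflect the choice. In controls 5 of the 12 were higher at E18.5 than at E14.5, namely Slc22a22, Slc22a23, Slc22a27, Slc22a29 and Slc22a30, and at E14.5 0 of the 12 were called between genotypes. Slc22a22, with 152 and 120 in E18.5 mutants and 262 and 268 in E18.5 controls, had a ratio of 0.513 (0.447 to 0.579), just short of the criterion.

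A list of 23 partners of organic ion and urate transport, with exporters, other carriers of the brush border and the basolateral side, and scaffold proteins, held 22 measured genes. In E18.5 mutants 9 of the 22 were lower and 0 higher, with a median log2 ratio of -0.54. The lower genes were Slc47a1, Slco1a6, Slc17a1, Slc17a3, Slc5a8, Slc5a12, Abcg2, Pdzk1 and Slc9a3r1. Among these lower genes the largest differences were those of Slc5a8, a sodium-coupled carrier of lactate and nicotinate, and of Pdzk1, a scaffold protein of the brush border. Slc5a8 read 43.0 and 37.4 in E18.5 mutants and 1082 and 1268 in E18.5 controls, a log2 ratio of -4.87. Pdzk1 read 219 and 215 in E18.5 mutants and 3421 and 3292 in E18.5 controls, a log2 ratio of -3.95. Slc26a1 by 1458327_x_at read 0.955 and 4.93 in E18.5 mutants and 71.0 and 89.4 in E18.5 controls, a log2 ratio of -4.77. It was not called, since its control arrays lay under the minimum signal, and its brightest probe set was at -0.82.

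The smallest called differences were in Abcg2, an efflux pump for urate and other anions, and Slc9a3r1, another scaffold of the brush border. Abcg2 read 479 and 617 in mutants and 1736 and 1772 in controls, a log2 ratio of -1.68. Slc9a3r1 was called by 2 of its 3 probe sets, at -1.15 by 1438115_a_at and -1.18 by 1438116_x_at, while the brightest, 1450982_at, was at -0.25. Slc47a1, the brush border exporter of cations taken up by OCT2, was looked at after its values were seen, and read 95.2 and 107 in mutants and 1580 and 1527 in controls. Of the 22 genes 1 was called lower at E14.5, Pdzk1, with 144 and 160 in mutants and 363 and 397 in controls. Slc47a1 was not called at E14.5, but its mutant arrays, at 61.3 and 54.8, lay below its control arrays, at 142 and 154. The E14.5 ratio of Slc47a1 was 0.392 (0.357 to 0.431), and its control arrays did not reach the minimum signal. In controls 10 of the 22 genes were higher at E18.5 than at E14.5.

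Carnitine, the substrate of Slc22a5, serves fatty acid import into mitochondria. Of 10 genes of carnitine synthesis and use 9 were measured, 0 were lower and 0 higher in E18.5 mutants, and the median log2 ratio was -0.26. In controls 1 of the 9, Cpt1a, was higher at E18.5. Of a list of 13 nuclear factors of the nephron and of drug carrier genes 11 were measured and 2 were lower in E18.5 mutants, with a median log2 ratio of -0.07. These were Hnf4a, at -2.34 by 1427001_s_at and -4.02 by 1427000_at but -0.28 by its brightest probe set 1421983_s_at, and Tfcp2l1, known as a factor of the distal nephron and collecting duct and not of the proximal tubule, with 877 and 1052 in mutants and 2139 and 2069 in controls. Hnf4a was also lower at E14.5, by 1427001_s_at, with 249 and 264 in mutants and 528 and 545 in controls.

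Most markers of the proximal tubule differed in the same direction as the 5 lower Slc22 genes. Of 11 measured proximal tubule markers 10 were lower in E18.5 mutants, with a median log2 ratio of -4.33, and their summed signal was 2195 to 2392 in E18.5 mutants and 23235 to 23791 in E18.5 controls. At E14.5 the sum was 1938 to 2130 in mutants and 2083 to 2297 in controls. Slc5a2 (mutant and control means 560 and 597) and Miox (641 and 527) weighed most in it. Both mutant arrays lay below both control arrays for Slc34a1 (ratio 0.463), Cubn (0.564), Lrp2 (0.588), Pck1 (0.769) and Fbp1 (0.789). For Miox they lay above (1.22), and arrays of the other markers overlapped. Of the 11 markers 0 were called at E14.5, and the median log2 ratio was -0.22. The control arrays of Slc34a1, Cubn, Lrp2, Pck1 and Fbp1 lay under the minimum signal. On the E18.5 mutant arrays 4 of the 11 markers reached the minimum signal, against 11 of 11 on the E18.5 control arrays and 2 of 11 in either E14.5 pool. Like the signals of Slc22a6 and Slc22a2, the sum was high in E18.5 controls alone. In RNA of whole kidneys, fewer proximal tubule cells and less RNA of a gene per cell cannot be told apart.

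Other cell types also differed between the E18.5 pools. The summed loop of Henle markers read 729 to 822 in mutants and 6830 to 6978 in controls, those of the collecting duct 3132 to 3644 in mutants and 6407 to 6560 in controls, and those of the nephron progenitors 4795 to 5581 in mutants and 2844 to 3058 in controls. Of the genes in these lists 4 of 5, 3 of 6 and 0 of 6 were lower. Among the collecting duct markers Aqp2 read 281 and 296 in E18.5 mutants and 2659 and 2632 in E18.5 controls. Fxyd4 went the other way, with 1145 and 1432 in mutants and 904 and 952 in controls, though it was not called. Markers of tissues that could adhere to a dissected kidney gave sums of 1292 to 1570 in mutants and 1285 to 1390 in controls for the adrenal gland, and 1843 to 2100 in mutants and 4381 to 4554 in controls for the liver, where Afp and a second of 6 genes were lower and Alb was higher. Their part in the Slc22 differences was not tested.

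**Figure D5:**
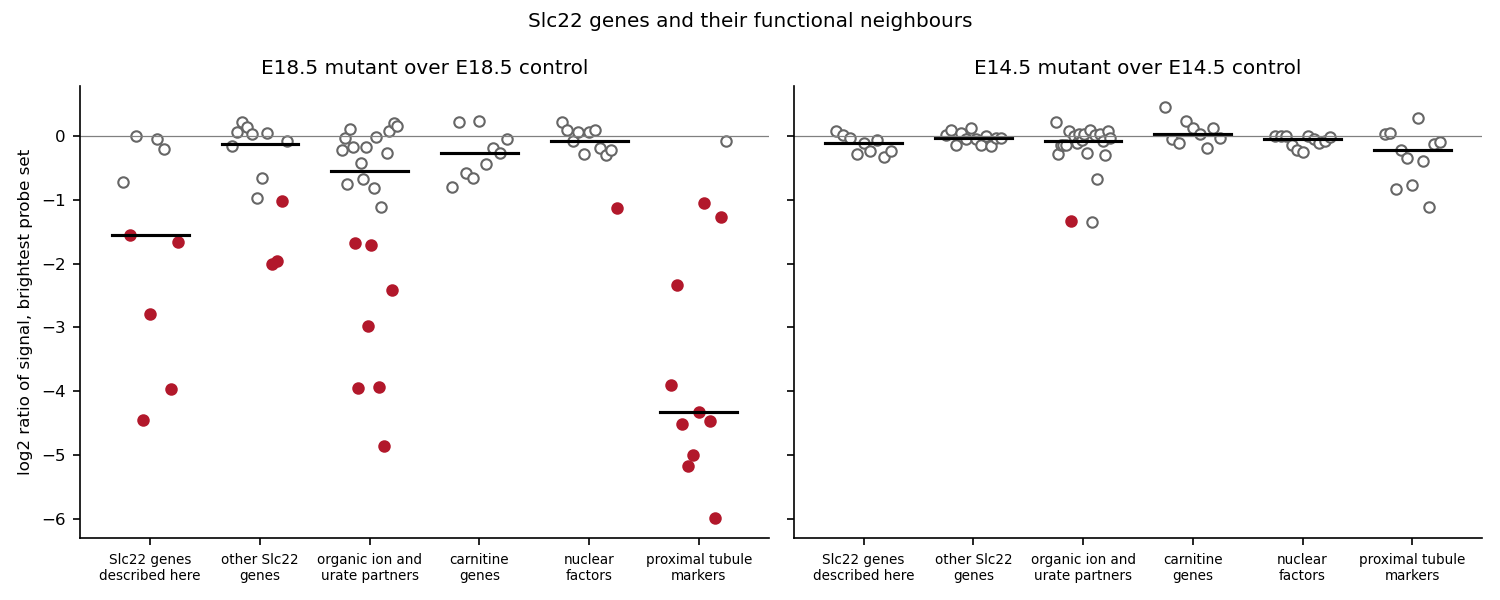
Log2 ratio of mutant over control, at E18.5 (left) and E14.5 (right), for single genes (points, brightest probe set) of 6 lists, with the list median as a black bar. Filled points met the criteria. At E18.5 the medians are -1.54 for the 9 Slc22 genes, -0.11 for the other Slc22 genes, -0.54 for the organic ion and urate partners, -0.26 for the carnitine genes, -0.07 for the nuclear factors and -4.33 for the proximal tubule markers.

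Each of the 5 lower genes was compared with 13433 other genes over the 4 pool means, and the 3 nearest by root mean square difference of the centred log2 signals were noted. For Slc22a19 these were Spp2, a secreted phosphoprotein, at 0.04, Aadat, an aminotransferase of kynurenine breakdown, at 0.17, and Gatm, the first enzyme of creatine synthesis, at 0.17. For Slc22a6 they were Mep1b, a brush border metalloprotease, at 0.08, Slc3a1, a subunit of the cystine carrier, at 0.08, and Ttc36 at 0.16. Spp2 read 140 and 136 in E18.5 mutants and 3042 and 2991 in E18.5 controls, and like Slc22a19 it was high in the E18.5 controls alone. For Slc22a2 the nearest genes were Itgb8, an integrin subunit, at 0.12, Galnt11, a glycosyltransferase, at 0.12, and Slc17a1, a phosphate and anion carrier, at 0.14. For Slc22a8 they were Them7 at 0.04, Slc39a5, a zinc carrier, at 0.06, and Ak4, a mitochondrial adenylate kinase, at 0.06. For Slc22a13 they were Cpox, an enzyme of heme synthesis, at 0.05, Slc33a1, an acetyl-CoA carrier, at 0.06, and Lrpap1, a chaperone of megalin, at 0.07. With 4 pool means such likeness is a description, and many genes that are high in 1 pool alone would rank close.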

How the data were processed

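Kidneys were pooled by genotype and stage, and 1 RNA preparation per pool was hybridised to 2 arrays. The deposited values are signal intensities on a linear scale, modelled and normalized by the authors in dChip after scaling in Microarray Suite 5.0. Detection calls were not used here, and the criterion on them was replaced by the 40th percentile of each array. Raw probe intensities were not used. The number of arrays limits the precision, and the array numbers 1 and 2 were not taken to pair samples.

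The platform annotation, with symbols updated by identifier, gave 34958 probe sets 1 gene, 932 several and 9211 none, and 34754 were matched by identifier. Ratios are between arithmetic means of duplicate arrays. Lists were read by the brightest probe set of each gene, and a gene counted as lower or higher if any probe set met the criteria. The limma fit used the pool means of log2(signal + 1), the probe sets with a mean signal at or above the 40th percentile, 1 residual and 3.91 prior degrees of freedom, and Benjamini-Hochberg adjustment over all probe sets tested.

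Named genes were the 9 Slc22 genes, Lhx1, from each other list the 2 lowest and the 2 highest E18.5 mutant over control ratios among genes that met the criteria, the markers, and the 3 genes nearest in pattern to each lower Slc22 gene. Also named, outside this rule, were Slc22a22, Slc22a23, Slc22a26, Slc22a28, Slc47a1, Slc26a1, Cpt1a and the other partner genes that were lower. The genes and lists were chosen with earlier results of these data known. Alternatives were a 50th percentile or no minimum signal, a ratio of 1.5, no criterion on duplicates, geometric means, an offset of 50 on every signal, scaling to equal medians, quantile normalization, same-numbered arrays compared, each array left out, and for limma another pseudocount (16), no filter or a term for array number. Scripts were tested on simulated data. The software was limma 3.58.1 under R 4.3.3, and pandas 2.3.3, numpy 2.4.6 and matplotlib 3.10.9 under Python 3.11.15.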

Additional observations from a re-analysis of the deposited data

How the results depend on the processing

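Of 792 log2 ratios of single Slc22 probe sets under an alternative, 772 moved by less than the spread between arrays, 20 moved further and 0 changed sign where called, and of those called 152 kept their call and 3 lost it, all 3 of Slc22a12 in E18.5 over E14.5 mutants. The number of Slc22 genes lower in E18.5 mutants than controls was 5 or 6, with Slc22a12 added at a ratio of 1.5 and without array 1 of the E18.5 mutants, and the number higher in E18.5 than in E14.5 controls was 5 to 7, with Slc22a5 and Slc22a18 added at a ratio of 1.5. The number lower in E18.5 than in E14.5 mutants was 1, and 0 when same-numbered arrays were compared (replicate block, both numbers past the threshold). Leaving out 1 array gave 0 to 1, with 0 without array 2 of the E18.5 mutants or array 2 of the E14.5 mutants. For the limma stage term 0 genes passed, and 4 passed with a replicate block for array number, Slc22a12, Slc22a18, Slc22a5 and Slc22a6, where 7753 of all probe sets did. Leaving out 1 array gave 0 to 4, with 4 without array 2 of the E18.5 mutants, Slc22a12, Slc22a19, Slc22a2 and Slc22a6, where 2729 of all 27061 probe sets did. The fit with the replicate block entered single arrays, with pool as a random block, and had 4 residual degrees of freedom in place of 1. Duplicate arrays of 1 RNA pool are not replicates of a condition, so the calls of that fit measure no spread between embryos. Without array 2 of the E18.5 mutants the prior degrees of freedom were 13.3 in place of 3.91. The cause of these changes in the number of genes was not tested. Same-numbered arrays of different pools deviated together with correlations from -0.45 to 0.42. Those with the E14.5 mutant pool were -0.28, -0.45 and -0.28, and those among the other pools were 0.40, 0.42 and 0.08. The numbers were not taken to pair the samples, and a deviation shared by arrays of different pools was not tested. A crossed pairing, chosen after seeing the data, gave 1 gene lower in E18.5 than in E14.5 mutants and 0 lower in E14.5 mutants than controls. With 50 units added to each signal the E18.5 mutant over control log2 ratios were -3.50 for Slc22a19, -3.45 for Slc22a6, -2.38 for Slc22a2 and -1.37 for Slc22a8, since an added constant reduces ratios against low signals. With duplicates of 1 RNA pool, differences between embryos could not be measured, and signals under the 40th percentile, those of Slc22a4 and of most Slc22 probe sets at E14.5, limit what could be called.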
